A study of Mus musculus with 2 samples.

Results

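Tox, Tox2, Maf, Il21 and Cxcr5, all genes of the follicular helper T cell programme, were followed across the colonic CD4 T cells of mice with transfer colitis. They were taken as a given list, 5 of the 11971 genes in the count table, and all 5 were present. The list was chosen with earlier results of these data known. Unique molecular identifiers (UMIs, 1 per captured transcript) were summed per mouse, over all cells and within each cluster, and are given as CPM (counts scaled to the same total in each mouse or cluster). Cxcr5 had only 59 UMIs and is given mainly as the share of cells with a UMI.

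The cells came from the colons of 12 Rag-/- mice, which lack T and B cells of their own and had been given CD4 T cells to cause colitis. Of these, 6 received wild-type CD4+ CD45RBhigh CD25- cells (WT-labelled) and 6 received CD4 T cells deficient in BCL-6 (KO-labelled). From each colon TCRb+CD4+ cells were sorted, tagged with a hashtag antibody for each mouse and read as 1 pooled library of 5′ chemistry. The sources used here do not give how many donors the transferred cells had, how BCL-6 was deleted or the age of the mice, so donor and genotype cannot be told apart, and p-values measure the spread between these mice.

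BCL-6 is the repressor that follicular helper T cells need, and these cells sit in B cell follicles and help B cells make antibody. TOX and TOX2 are high mobility group transcription factors that act with BCL-6 in that programme, and TOX is also known from T cells under lasting antigen stimulation. c-MAF, encoded by Maf, drives Il21 and other cytokine genes in follicular helper, Th17 and regulatory T cells. Interleukin 21 is the cytokine that helper cells give to B cells, and CXCR5 is the chemokine receptor that brings cells into follicles. The authors gave none of their clusters a follicular helper name.

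On GRCm38 with the GENCODE vM21 annotation, Tox lies on the minus strand of chromosome 4 (6686353 to 6991557), Maf on the minus strand of chromosome 8 (115682942 to 115707794) and Cxcr5 on the minus strand of chromosome 9 (44511787 to 44561877). Tox2 lies on the plus strand of chromosome 2 (163203125 to 163324170) and Il21 on the minus strand of chromosome 3 (37222759 to 37232636). Annotated genes on the opposite strand overlap 4 of the 5: Gm11802 at Tox, Gm15655 at Maf, Gm12534 at Il21 and Bcl9l at Cxcr5. No source used here says if strand was used in counting, and without it the reads of such a pair cannot be told apart. The RefSeq promoter table (GRCm38.p6) matched Tox2, with 5 starts, and Il21, with 1.

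The 250 bases before a start are shown for the 2 members with a promoter in that table, the member with the largest log2 fold change among those tested and the cytokine. They are written 5′ to 3′ on the strand of the gene. Capitals mark the NFAT core GGAAA on either strand, the site of factors that act downstream of the T cell receptor.
Tox2, first start, chr2:163202877-163203126, plus strand: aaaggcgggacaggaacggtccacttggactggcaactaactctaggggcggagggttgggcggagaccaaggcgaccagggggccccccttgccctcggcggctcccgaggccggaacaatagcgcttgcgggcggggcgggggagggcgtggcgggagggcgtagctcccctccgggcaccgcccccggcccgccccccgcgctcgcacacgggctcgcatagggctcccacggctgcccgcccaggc
Il21, chr3:37232637-37232886, minus strand: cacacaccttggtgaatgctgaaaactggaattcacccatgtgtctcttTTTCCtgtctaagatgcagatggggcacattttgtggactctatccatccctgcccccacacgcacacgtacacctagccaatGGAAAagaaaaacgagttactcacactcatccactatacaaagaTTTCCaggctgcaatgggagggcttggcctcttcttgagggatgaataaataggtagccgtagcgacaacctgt

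The Il21 window held 3 NFAT cores, which began 201, 118 and 74 bases before the start, and the window at the first Tox2 start held none. An NFAT core was found in 55.6% of the 32851 promoters in the table. The palindrome TTCNNNGAA, the form that BCL6 and STAT factors bind, was found in 7.02% of promoters, the AP-1 site TGANTCA in 6.75% and the MAF core TGCTGAC in 3.81%, each searched on both strands. None of these last 3 was in either printed window, nor in the other 4 Tox2 windows, of which 2 overlapping ones held 1 NFAT core each. Of the 250 bases, 75.2% were G or C at the first Tox2 start and 47.6% at Il21. A match is a description of letters and not of binding.

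The table held 57634998 UMIs in 18860 cells. Each mouse had 1409 to 1736 cells with a total of 4252124 to 5523025 UMIs, and no cell barcode occurred more than once. All 8 T cell markers listed were measured, with a summed level of 4543 to 5514 CPM per KO-labelled mouse and 4342 to 5010 CPM per WT-labelled mouse. Bcl6 itself was higher in KO-labelled mice (81.1 ± 11.3 against 56.4 ± 7.93 CPM, mean ± SD, n = 6 each). The difference was 0.48 ± 0.10 on the log2 scale (SE, adjusted p = 0.00398 by edgeR's quasi-likelihood test). The 5′ count covers no stated deletion and cannot check the labels, so directions below refer to the deposited labels. Of the T cell markers, Cd4 was higher in KO-labelled mice (log2 fold change 0.63, adjusted p = 8.75e-07, edgeR). The T cell receptor genes Trbc1 (-0.43, adjusted p = 0.0172) and Trbc2 (-0.38, adjusted p = 0.00927) were lower (edgeR). The other T cell markers listed were not called. Cd8a (-3.44, adjusted p = 5.59e-05), the immunoglobulin gene Igkc (-3.54, adjusted p = 7.02e-05), the keratin gene Krt18 (-1.89, adjusted p = 1.32e-04) and the NK receptor gene Klrb1c (-1.58, adjusted p = 0.0134) were lower (edgeR). No other measured marker of these 4 kinds was called. Epcam (1.23, adjusted p = 0.0770), Ighm (0.60, 0.103), Cd79b (0.24, 0.624) and Cd8b1 (-0.09, 0.893) did not pass (edgeR). Krt8, Krt19, Lgals4 and Klre1 were left out by the filter on low counts, with higher means in KO-labelled mice. The markers of a kind therefore did not fall as a group. Summed markers of CD8 T cells (2 of 2 measured) ran from 4.06 to 10.0 CPM against 11.3 to 56.2 CPM, KO-labelled first, those of epithelium (5 of 7) from 6.62 to 13.2 against 10.5 to 25.4, and those of NK cells (2 of 3) from 0.706 to 4.48 against 2.45 to 7.91. Their part in the results was not tested.

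Over all cells, Tox and Tox2 fell and Maf rose in KO-labelled against WT-labelled mice. Il21 did not pass the test, and Cxcr5 was left out of it by the filter on low counts. The 3 calls among 4 members tested stand beside 14.2% of the 9861 genes tested that were called, 7.04% higher and 7.21% lower. The test was edgeR's quasi-likelihood test over all genes with Benjamini-Hochberg adjustment. The genotypes also differed in the clusters their cells came from. With every cluster given the same weight in each mouse, only Tox2 of the 4 kept an adjusted p under 0.05, beside 10.4% of genes called (limma). Cells of unnamed cluster 1 made up 32.6% ± 8.71 of a KO-labelled mouse's cells and 8.37% ± 2.25 of a WT-labelled mouse's. Cytotoxic cells made up 8.63% ± 4.52 against 33.2% ± 6.77, and Th17 cells 5.83% ± 2.78 against 18.0% ± 5.98 (SD, n = 6 mice each).

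**Figure D1:**
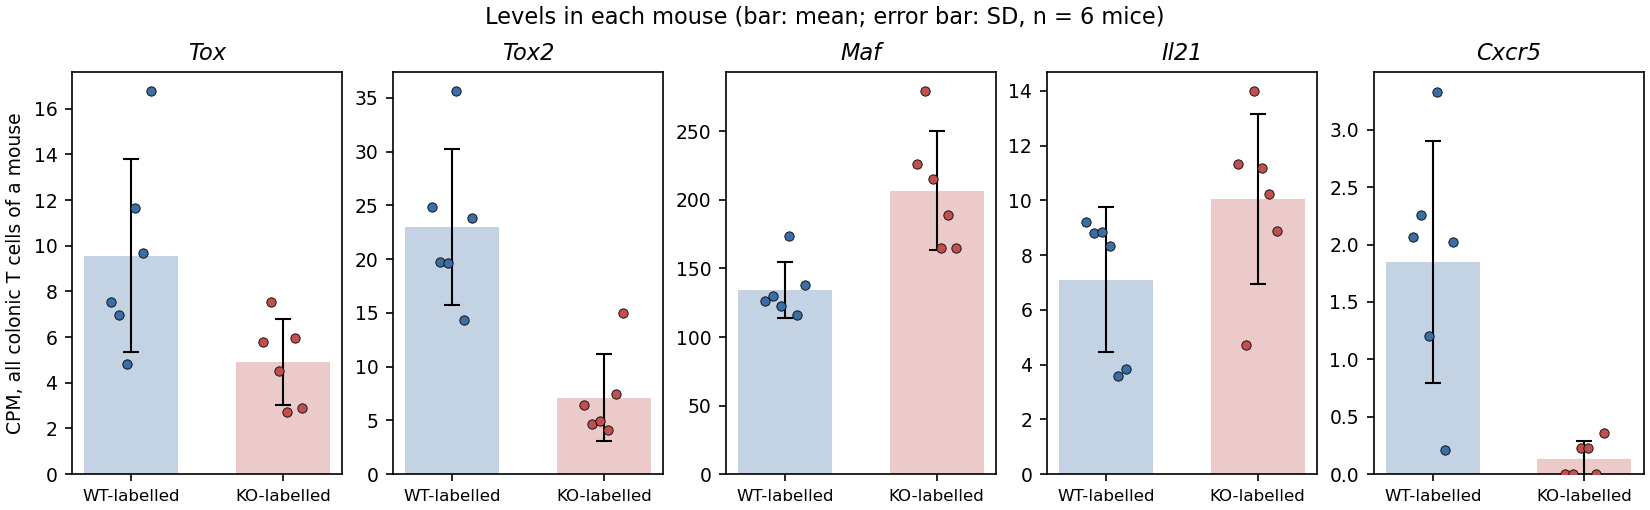
Level of each member over all cells of a mouse in CPM, with WT-labelled mice in blue and KO-labelled mice in red; bars are means, error bars the SD over 6 mice and points single mice. For all 5 genes the ranges of the genotypes overlapped: Tox2 stood at 14.3 to 35.6 CPM in WT-labelled mice and at 4.11 to 15.03 in KO-labelled mice, where mouse 6 stood apart.

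**Figure D2:**
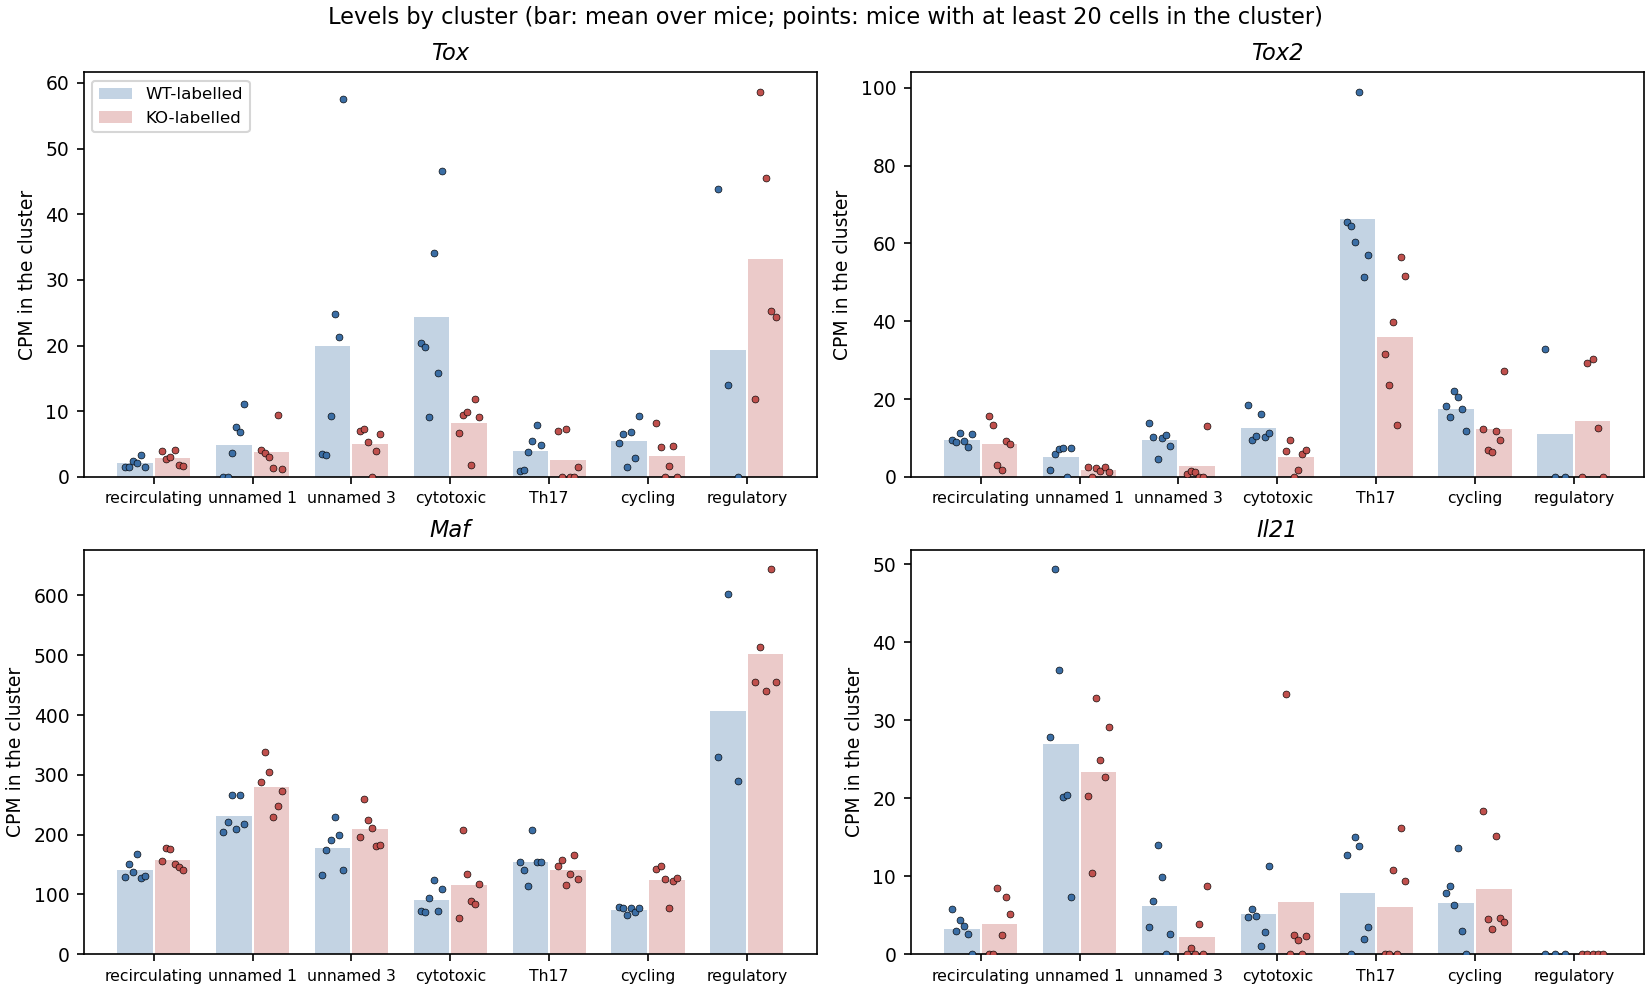
Level of 4 members in CPM within each of the authors' clusters, with WT-labelled mice in blue and KO-labelled mice in red; bars are means over mice and points are mice with at least 20 cells in the cluster. By the mean over mice, Tox2 was highest in Th17 cells, Maf in regulatory cells and Il21 in unnamed cluster 1 in both genotypes. The Tox mean was highest in cytotoxic cells of WT-labelled mice and in regulatory cells of KO-labelled mice. For Tox and Il21 in both genotypes, and for Tox2 in KO-labelled mice, the range of the top cluster overlapped that of the next.

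Tox was a scarce transcript, with 418 UMIs in 348 cells. In KO-labelled mice its level was 2.74 CPM at the lowest, 5.14 at the median and 7.53 at the highest. In WT-labelled mice it was 4.81, 8.60 and 16.8 CPM. WT-labelled mouse 6 was the highest of all, and the ranges overlapped. Tox fell by 1.01 ± 0.29 on the log2 scale (SE, adjusted p = 0.0296, edgeR). The call was lost without KO-labelled mouse 3 (adjusted p = 0.0556) or 4 (0.0528) and without WT-labelled mouse 4 (0.0638) or 6 (0.0691). With clusters weighted alike the log2 fold change was -0.85 ± 0.30 (adjusted p = 0.0764, limma). Without the 1974 cells that held a UMI of a B cell, myeloid or epithelial marker it was -0.97 (adjusted p = 0.0762, edgeR). Some Tox was found in 1.29% of KO-labelled and 2.44% of WT-labelled cells, or 0.749% and 1.52% with each cell thinned to 1500 UMIs.

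The clusters that held Tox differed between the genotypes. In WT-labelled mice 177 of 283 Tox UMIs (62.5%) lay in cytotoxic cells, which were 33.2% of those mice's cells pooled. In KO-labelled mice 15 of 135 (11.1%) lay there, in 8.43% of the cells. Among cytotoxic cells Tox ran from 9.18 to 46.5 CPM in WT-labelled mice, with a median of 20.1. In KO-labelled mice it ran from 1.81 to 11.9 CPM, with a median of 9.27. WT-labelled mouse 3 lay among the KO-labelled mice, and the other WT-labelled mice lay above every one of them.

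Tox passed the filter on low counts within no cluster. In a fit without that filter, it fell in cytotoxic cells by 1.68 ± 0.44 on the log2 scale (adjusted p = 0.0245, edgeR, beside 2.57% of genes called). That call was lost without KO-labelled mouse 4, with a log2 fold change of -1.31 (adjusted p = 0.146). In unnamed cluster 3 it fell by 1.92 ± 0.43 (adjusted p = 0.00148, edgeR, beside 3.55% of genes called). There WT-labelled mouse 6 stood at 57.6 CPM with 22 of the 37 WT UMIs, against 3.41 to 24.9 CPM in the other WT-labelled mice and 0 to 7.35 CPM in KO-labelled mice. Of those UMIs 8 came from 6 cells of 1 clonotype, which had 22 cells in that mouse. Without this mouse the log2 fold change was -1.03 (adjusted p = 0.398, edgeR). In regulatory cells Tox stood at 33.1 ± 18.7 CPM in KO-labelled (SD, n = 5) and at 19.3 ± 22.4 CPM in WT-labelled mice (n = 3, from 5 UMIs).

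Cytotoxic cells with a Tox UMI differed from the rest of that cluster in other transcripts as well. Pdcd1, which encodes the inhibitory receptor PD-1, had a UMI in 18.7% of the 150 cells with Tox and in 7.21% of the 3705 without. Maf was found in 28.7% against 16.98%. Ifng, the interferon gamma gene, was found in 38.7% against 56.2%, and Cd8a in 2.67% against 11.7%. The cells with Tox were the shallower ones, with a median of 2139.5 against 2441 UMIs. Cells are not replicates, and these shares carry no test.

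Tox2 had 891 UMIs in 730 cells and changed most among the members tested. In KO-labelled mice its level was 4.11 CPM at the lowest, 5.69 at the median and 15.03 at the highest. In WT-labelled mice it was 14.3, 21.8 and 35.6 CPM. Only KO-labelled mouse 6 reached the WT range, just above WT-labelled mouse 5. Tox2 fell by 1.69 ± 0.27 on the log2 scale (SE, adjusted p = 6.71e-04, edgeR), and by 2.08 without KO-labelled mouse 6. The call held in all 20 alternatives computed, among them each mouse left out in turn. With clusters weighted alike the fall was 0.89 ± 0.22 (adjusted p = 0.0104, limma), at 9.12 ± 3.36 CPM in KO-labelled against 16.4 ± 3.04 in WT-labelled mice (SD, n = 6 each).

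Most Tox2 of WT-labelled mice lay in Th17 cells. In WT-labelled mice 419 of 683 Tox2 UMIs (61.3%) came from Th17 cells, which were 18.1% of the cells. In KO-labelled mice 74 of 208 (35.6%) came from 5.80% of the cells. Within Th17 cells the level was 51.3, 62.5 and 99.0 CPM (lowest, median, highest) in WT-labelled mice and 13.5, 35.7 and 56.6 CPM in KO-labelled mice. KO-labelled mice 5 and 6 lay within the WT range, and the other KO-labelled mice lay below it. Tox2 fell in Th17 cells by 0.83 ± 0.23 on the log2 scale (adjusted p = 0.0338, edgeR, beside 5.18% of genes called). The call was lost when KO-labelled mouse 1, 2, 3 or 4 or WT-labelled mouse 1, 2 or 4 was left out, with adjusted p from 0.0514 to 0.0896 and a fall of 0.67 to 0.85. Among WT-labelled mice the order of clusters ran from Th17 (66.3 ± 16.9 CPM, SD) to cycling (17.5 ± 3.68) and cytotoxic cells (12.7 ± 3.65). Th17 cells did not overlap cycling cells there, while all later neighbours in the order overlapped.

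Outside Th17 cells Tox2 was low. In recirculating cells KO-labelled mice stood at 8.58 ± 5.49 CPM and WT-labelled mice at 9.61 ± 1.33 (SD, n = 6 each), with a log2 fold change of -0.47 ± 0.31 (adjusted p = 0.516, edgeR). In cytotoxic cells the ranges did not overlap, with 0 to 9.46 CPM in KO-labelled and 9.52 to 18.4 CPM in WT-labelled mice, though the KO values rest on 8 UMIs. The fit without the filter gave a fall of 1.71 ± 0.46 there (adjusted p = 0.0320, edgeR). This call was lost without KO-labelled mouse 3, 4 or 5 or WT-labelled mouse 1 or 4 (adjusted p from 0.0513 to 0.154). In unnamed cluster 3 the same fit gave a fall of 2.14 ± 0.62 (adjusted p = 0.0268, edgeR), also lost without KO-labelled mouse 1, 2 or 5 or WT-labelled mouse 1, 2 or 5 (0.0517 to 0.106). KO-labelled mouse 6 held 6 of the 10 KO UMIs in that cluster, at 13.1 CPM, and the fall was 3.19 without it.

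KO-labelled mouse 6 held 83 of the 208 Tox2 UMIs of its genotype. Of these 30 lay in 20 cells of 1 clonotype with 140 cells in that mouse. Cells with Tox2 often held Il17a, the cytokine that defines Th17 cells: 24.4% of the 730 cells with Tox2 had an Il17a UMI, against 3.71% of the rest. Within the Th17 cluster the shares were 38.6% against 23.3%, and cells with Tox2 were deeper (median 3871.5 against 3317 UMIs). Tox and Tox2 were seen together in 23 cells. Tox was found in 3.15% of cells with Tox2 and in 1.79% of the rest. Over all clusters the cells with Tox2 were again deeper (median 3937 against 2743.5 UMIs). Over the 14 profiles of a cluster and a genotype, the genes most like Tox2 were Pi4k2a (Pearson r = 0.93 of log2 CPM with a pseudocount of 10), Hccs (0.92) and Tff1 (0.90), among 5605 genes with at least 1000 UMIs. These profiles share mice and the library, and the correlation is a description.

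**Figure D3:**
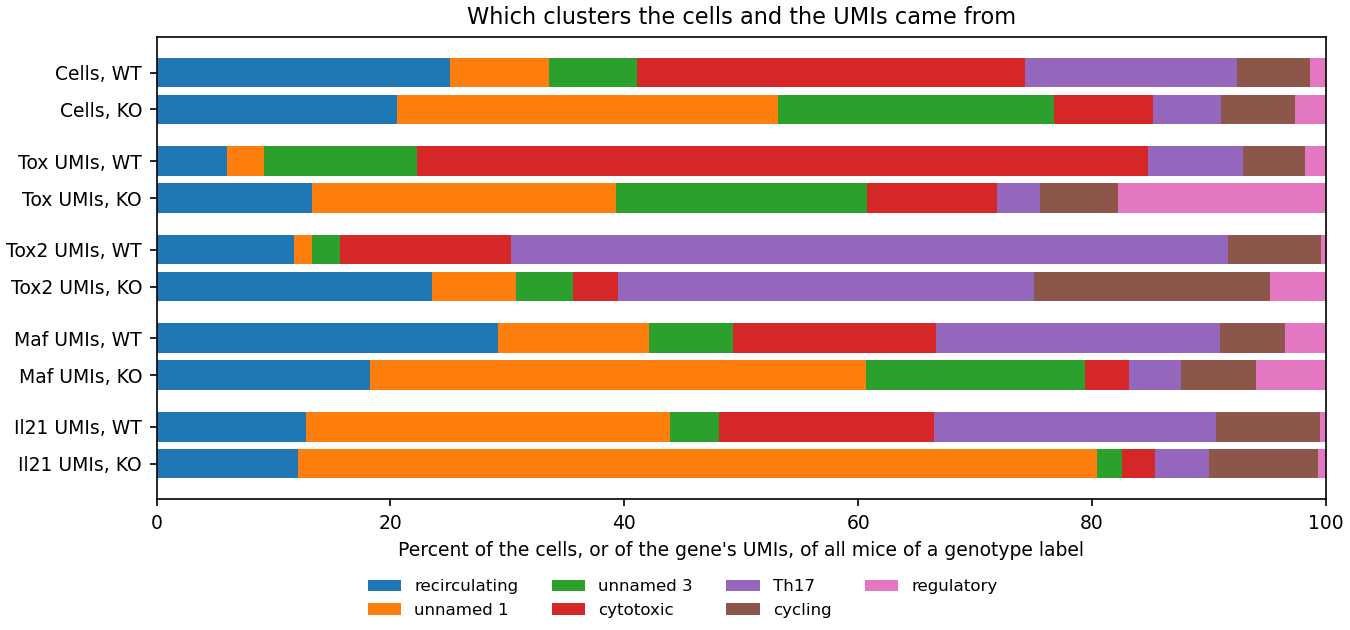
Percent of the cells, and of the UMIs of Tox, Tox2, Maf and Il21, that lay in each of the 7 clusters, pooled over the 6 mice of a genotype label. Cytotoxic cells held 62.5% of Tox UMIs in WT-labelled mice, Th17 cells 61.3% of Tox2 UMIs in WT-labelled mice, and unnamed cluster 1 held 68.3% of Il21 UMIs in KO-labelled mice.

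Maf was the most abundant member, with 9708 UMIs in 6088 cells. In KO-labelled mice its level was 165 CPM at the lowest, 202 at the median and 279 at the highest. In WT-labelled mice it was 116, 128 and 173 CPM. WT-labelled mouse 4 lay above KO-labelled mice 4 and 6, and all other WT-labelled mice lay below every KO-labelled mouse. Maf rose by 0.58 ± 0.13 on the log2 scale (SE, adjusted p = 0.00552, edgeR). With clusters weighted alike the log2 fold change was 0.24 ± 0.08 (adjusted p = 0.0651, limma), at 186 ± 25.8 against 157 ± 15.8 CPM (SD, n = 6 each). A UMI of Maf was found in 36.1% of KO-labelled and 28.2% of WT-labelled cells, or 23.7% and 16.5% at 1500 UMIs per cell.

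Maf followed the clusters in the same leading order in both genotypes. It stood highest in regulatory cells, at 502 ± 84.7 CPM in KO-labelled (SD, n = 5) and 407 ± 171 CPM in WT-labelled mice (n = 3). Unnamed cluster 1 came next, at 280 ± 39.5 and 231 ± 28.1 CPM (n = 6 each), and did not overlap regulatory cells. Unnamed cluster 3 followed, at 209 ± 29.6 and 178 ± 36.3 CPM, and overlapped unnamed cluster 1. The lowest levels were in cytotoxic cells of KO-labelled mice (115 ± 52.4 CPM) and in cycling cells of WT-labelled mice (74.2 ± 5.13 CPM). Unnamed cluster 1 supplied 42.4% of the Maf UMIs of KO-labelled mice and 12.9% of those of WT-labelled mice.

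Maf was the only member that passed the filter in all 7 clusters, and it rose in 1 of them. In cycling cells it was 77.3 CPM at the lowest, 127 at the median and 148 at the highest in KO-labelled mice, and 65.9, 77.1 and 78.2 CPM in WT-labelled mice. KO-labelled mouse 4 lay among the WT-labelled mice, and the other KO-labelled mice lay above every one of them. The log2 fold change was 0.68 ± 0.14 (adjusted p = 0.00366, edgeR, beside 5.36% of genes called). It passed in all 17 alternatives computed, with adjusted p from 1.18e-04 to 0.0488. Among them, a minimum of 50 cells per mouse left out no mouse and repeated the main fit. In the other 6 clusters the log2 fold change of Maf ran from -0.21 in Th17 cells to 0.31 in regulatory cells, with adjusted p from 0.234 to 0.714 (edgeR). In those 6 clusters the share of genes called was 5.48% (recirculating), 4.58% (unnamed 1), 8.42% (unnamed 3), 2.89% (cytotoxic), 5.18% (Th17) and 0.513% (regulatory).

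Of the other genes examined in cells with and without Maf, some differed in share and some were near level. Il10, which encodes an anti-inflammatory cytokine, had a UMI in 1.72% against 0.462% of cells. Foxp3, the regulatory T cell factor, had one in 2.78% against 0.885%, and Il21 in 3.15% against 1.00%. Most cells with both Maf and Foxp3 (150 of 169) and with both Maf and Il10 (59 of 105) were regulatory cells, where Foxp3 was found in 66.1% against 60.1% and Il10 in 26.0% against 7.84%. Ifng (48.8% against 46.7%), Il2 (6.01% against 5.03%) and Bcl6 (14.9% against 14.6%) were near level. Cells with Maf were deeper, with a median of 2977 against 2666 UMIs, and these shares carry no test. The genes most like Maf over the 14 profiles were Itm2c (r = 0.95), Tnfrsf18, which encodes the receptor GITR (0.95), and Nck2 (0.94).

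Il21 had 493 UMIs in 320 cells. In KO-labelled mice its level was 4.70 CPM at the lowest, 10.7 at the median and 13.98 at the highest. In WT-labelled mice it was 3.58, 8.58 and 9.22 CPM. KO-labelled mice 1, 3, 4 and 5 lay above every WT-labelled mouse, and KO-labelled mouse 2 lay near the 2 lowest WT-labelled mice, 5 and 6. Its fold change was 0.45 ± 0.26 on the log2 scale (SE, adjusted p = 0.276, edgeR), so no difference was shown over all cells. With clusters weighted alike the sign turned, to -0.17 ± 0.31 (adjusted p = 0.789, limma).

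Il21 of KO-labelled mice lay mainly in unnamed cluster 1. That cluster held 192 of 281 Il21 UMIs (68.3%) in KO-labelled mice, in 32.7% of the cells. In WT-labelled mice it held 66 of 212 (31.1%), in 8.41% of the cells, beside 24.1% in Th17 and 18.4% in cytotoxic cells. Within unnamed cluster 1 the level was 10.4 CPM at the lowest, 23.8 at the median and 32.9 at the highest in KO-labelled mice. In WT-labelled mice it was 7.37, 24.2 and 49.4 CPM. The KO-labelled range lay inside the WT-labelled one. The log2 fold change there was -0.40 ± 0.30 (adjusted p = 0.581, edgeR). In the mice with 20 or more regulatory cells, no regulatory cell had an Il21 UMI. Over all mice 2 regulatory cells had one.

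A few cells held much of the Il21. In KO-labelled mice 10 cells with 5 or more UMIs held 63 of the 281 UMIs, and 4 WT-labelled cells held 33 of 212. The largest count in a cell was 17, in WT-labelled mouse 2. Of the 320 cells with Il21, 76.3% also had an Ifng UMI, against 46.9% of the rest, and 60.0% against 31.8% had Maf. Within unnamed cluster 1 the shares were 85.0% against 61.1% for Ifng and 70.6% against 41.5% for Maf. Bcl6 was found in 11.9% of cells with Il21 and in 14.8% of the rest. Cells with Il21 were deeper, with a median of 3541.5 against 2762 UMIs.

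Cxcr5 was found in 51 cells, 47 of WT-labelled and 4 of KO-labelled mice, with 55 and 4 UMIs. The level was 0 CPM at the lowest, 0.113 at the median and 0.362 at the highest in KO-labelled mice, with 3 of the 6 at 0. In WT-labelled mice it was 0.210, 2.04 and 3.33 CPM. WT-labelled mouse 5, with 1 UMI, lay among the KO-labelled mice, and the other 5 lay above all of them. The means were 0.136 ± 0.157 and 1.85 ± 1.05 CPM (SD, n = 6 each), and 1 two-sided exact permutation test gave p = 0.00866.

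The share of cells with a Cxcr5 UMI was compared after each cell was thinned to 1500 UMIs. KO-labelled mice had a share of 0.0234% ± 0.0364 and WT-labelled mice one of 0.307% ± 0.211 (SD, n = 6 each). The difference did not pass (two-sided exact permutation test, p = 0.0152, or 0.0844 adjusted over 6 tests). Without thinning the shares over pooled cells were 0.0412% and 0.514%. The thinned counts are small, 2 and 27 cells, and the result depended on the random draw. The expected share over all draws was 0.0237% ± 0.0277 against 0.329% ± 0.198, with an adjusted exact permutation p of 0.0152 over 7 tests. That calculation was added after seeing the data. Among cytotoxic cells the thinned share was 0.0838% ± 0.205 against 0.986% ± 0.822 (exact permutation p = 0.0281, adjusted p = 0.0844), and the expected share 0.0438% ± 0.107 against 1.04% ± 0.799 (exact permutation p = 0.00433, adjusted p = 0.0152).

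Of the 47 WT-labelled cells with Cxcr5, 40 were cytotoxic cells, a share of 1.32% of the 3037 cells in that cluster. The share was 0.130% in recirculating (3 cells) and 0.0603% in Th17 cells (1 cell), although those cells were deeper (medians 3264 and 3468 against 2480 UMIs). It was 0.794% in regulatory cells (1 of 126), 0.144% in unnamed cluster 3 (1 cell) and 0.130% in unnamed cluster 1 (1 cell). In CPM the range of regulatory cells, from 3 mice, overlapped that of cytotoxic cells. In cycling cells of WT-labelled mice it was 0 of 569, which allows a share of up to 0.527% by counting error. In KO-labelled mice the 4 cells were 2 of unnamed cluster 3, 1 cytotoxic and 1 recirculating cell, and 0 of 3170 in unnamed cluster 1 allows a share of up to 0.0946%. WT-labelled mice 1 to 6 contributed 6, 9, 6, 15, 1 and 10 cells. Of the 47 cells, 40 had a clonotype, 37 different ones, and the most cells in 1 clonotype were 4, from a clonotype of 17 cells in WT-labelled mouse 2. Their median doublet score was 0.0235, against 0.0646 in the other WT-labelled cells.

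The 40 cytotoxic cells with Cxcr5 were set beside the 2997 other cytotoxic cells of WT-labelled mice. Of follicular helper genes, Slamf6, a SLAM family receptor, had a UMI in 35.0% against 4.04%, Pdcd1 in 25.0% against 7.64%, and Bcl6 in 30.0% against 10.8%. Sh2d1a, which encodes the SLAM adaptor SAP, was found in 57.5% against 31.7%, and Tcf7, a factor of naive and stem-like T cells, in 37.5% against 20.6%. Klf2, a factor that opposes the programme, was also found more often, in 67.5% against 36.8%, as were genes of recirculation, S1pr1 (30.0% against 8.21%) and Ccr7 (4 of the 40 cells against 1.20%). Icos was found in 70.0% against 59.7% and Btla in 1 of the 40 against 69 of the 2997, and Cd200 and S1pr2 in 0 of the 40 against 0.901% and 1.13%. Of the members, Tox was found in 12.5% against 4.34% and Maf in 20% against 16.8%. Tox2 was not found more often, in 1 of the 40 against 90 of the 2997. Il21 was found in 0 of the 40, which allows up to 7.5%, against 0.901%. The cells with Cxcr5 were no deeper than the rest (median 2207 against 2481 UMIs).

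The same cells differed in effector and coreceptor genes, which were picked after their values were seen. Eomes, a T-box factor of memory and cytotoxic cells, was found in 82.5% against 20.7%, Gzmk in 90% against 39.6%, and the costimulatory receptor gene Cd27 in 42.5% against 8.11%. Esm1 lies inside the annotated span of Gzmk on the opposite strand, so its 67.5% against 14.7% may hold Gzmk reads. Cd160 and Plac8 were found in 0 of the 40 cells (up to 7.5% by counting error), against 35.4% and 25.1% of the others, and the integrin gene Itgae in 2.50% against 23.1%. Cd4 was found in 25.0% against 54.4% and Cd8a in 2.50% against 13.4%, and the T cell receptor component Cd3e in 90% against 90.7%. Igkc was found in 42.5% against 6.54%, and any measured marker of B cells, myeloid cells or epithelium in 47.5% against 12.8%. Igkc is among these markers: 19 of the 40 cells held any of them and 17 held Igkc. Ighm was found in 3 of the 40, Cd79b and Epcam in 1 each, and Lyz2, Tyrobp and Krt18 in 0. B cells carry CXCR5 too, and 3 of the 9 B cell markers listed were measured, at a summed level of 12.2 to 26.7 CPM in KO-labelled and 22.3 to 38.9 CPM in WT-labelled mice. Without all cells holding such a marker, the thinned share of cells with Cxcr5 differed by -0.171 percentage points, KO-labelled minus WT-labelled (adjusted exact permutation p = 0.0379). The part of these markers in the result was not tested, and the shares among the 40 cells carry no test.

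**Figure D4:**
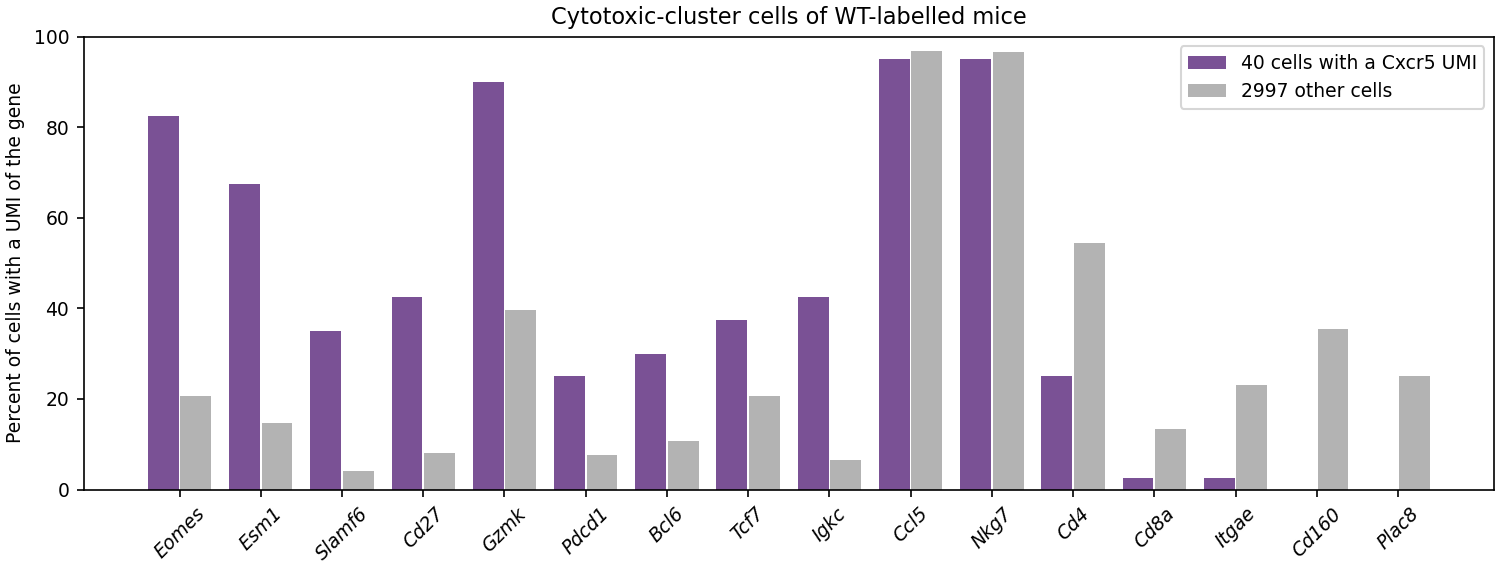
Percent of cytotoxic-cluster cells of WT-labelled mice with a UMI of each gene, for the 40 cells with a Cxcr5 UMI (purple) and the 2997 others (grey). Eomes (82.5% against 20.7%) and Slamf6 (35.0% against 4.04%) were found more often in cells with Cxcr5, Cd160 and Plac8 in none of them, and Ccl5 and Nkg7 in 95% of them and 96.9% and 96.7% of the others.

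Whether the genotype effect differed between clusters was tested against recirculating cells, within mice. Of 15 member and cluster pairs tested, 0 passed by limma, and 4 had an unadjusted p under 0.05. The largest share of genes called in any of these comparisons was 0.0123%, in cytotoxic cells, and it was 0% in the other 5. The 4 pairs were Tox in cytotoxic cells (-1.62 ± 0.49 on the log2 scale, SE, adjusted p = 0.481), Tox2 in cytotoxic cells (-0.91 ± 0.25, adjusted p = 0.457), Tox2 in unnamed cluster 3 (-1.26 ± 0.49, adjusted p = 0.613) and Maf in cycling cells (0.56 ± 0.15, adjusted p = 0.381). The calls within single clusters are therefore not shown to be particular to those clusters.

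Clonal expansion, a readout from the T cell receptor, moved with 2 members. Cells of clonotypes with 3 or more cells in a mouse (10004 cells) were compared with cells whose clonotype was seen once (4067 cells), within the 12 mice. Clusters were pooled and not adjusted for in this comparison. Of single clusters, only recirculating and cytotoxic cells were compared in this way, and Th17 cells were not. Tox2 was higher in expanded clonotypes, at 17.8 ± 11.1 against 11.6 ± 8.45 CPM (SD), in 11 of 12 mice. Its log2 fold change was 0.63 ± 0.17 (SE, adjusted p = 0.0150, edgeR with mouse as a block, beside 9.37% of genes called). Maf was lower in expanded clonotypes, at 155 ± 50.4 against 196 ± 44.1 CPM, in 11 of 12 mice (-0.38 ± 0.06 on the log2 scale, adjusted p = 9.58e-05, edgeR). Il21 (-0.75 ± 0.25, adjusted p = 0.0614) and Tox (-0.38 ± 0.21, adjusted p = 0.319) did not pass.

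Maf was also lower in expanded clonotypes within clusters. Within recirculating cells it stood at 130 ± 21.9 against 174 ± 31.7 CPM, lower in 10 of 12 mice (log2 fold change -0.38 ± 0.10, adjusted p = 0.0221, edgeR, beside 2.72% of genes called). Within cytotoxic cells of 10 mice it stood at 88.3 ± 32.5 against 140 ± 47.1 CPM (-0.78 ± 0.20 on the log2 scale, adjusted p = 0.0386, edgeR, beside 1.73% of genes called), but was lower in 6 mice and higher in 4. Tox in cytotoxic cells was 13.9 ± 8.75 against 32.1 ± 24.7 CPM, lower in 9 of 10 mice, and missed the threshold (log2 fold change -1.32 ± 0.37, adjusted p = 0.0511, edgeR). Tox2 did not pass the filter on low counts within either cluster. It stood at 10.3 ± 6.64 CPM in expanded against 10.9 ± 12.8 CPM in single cytotoxic cells, higher in 4 mice and lower in 4, and at 10.9 ± 6.82 against 9.48 ± 5.11 CPM in recirculating cells, higher in 8 mice and lower in 4.

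The further genes listed by role moved in both directions over all cells. These 41 genes included 3 that oppose the follicular helper programme, 2 relatives of Tox and 4 of Maf, so not all share its direction. Of the 41, 37 were in the table and 36 were tested. In KO-labelled mice 8 rose and 7 fell, beside 7.04% and 7.21% of all genes tested. Without the relatives, 7 rose and 7 fell among 32 tested. The median log2 fold change of the whole list was 0.03, beside 0.00 over all genes tested. With clusters weighted alike 6 rose and 5 fell, beside 6.77% and 3.64% of all genes (limma). Calls lost there were those of Klf2, Cd40lg, Il6st, Il21r, Pdcd1 and Maff, and calls gained those of Selplg (0.17, adjusted p = 0.0171) and Ly9 (0.38, adjusted p = 0.0274).

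Among regulators Bcl6 and Nfatc1 (0.36 ± 0.07, adjusted p = 0.00276) rose, and Batf (-0.78 ± 0.12, adjusted p = 4.88e-04) and Lef1 (-0.63 ± 0.16, adjusted p = 0.0122) fell. Batf, an AP-1 factor that follicular helper and Th17 cells need, stood at 169 to 298 CPM in KO-labelled and 337 to 479 CPM in WT-labelled mice, with no overlap. Of genes that oppose the programme, Id2 rose (0.20 ± 0.06, adjusted p = 0.0453) and Klf2 fell (-0.58 ± 0.10, adjusted p = 0.00138), while Prdm1, which encodes the BCL-6 antagonist BLIMP-1, had a log2 fold change of 0.01 (adjusted p = 0.937). These adjusted p-values are from edgeR. Weighted alike over clusters, Klf2 stood at -0.21 (adjusted p = 0.128, limma) and Prdm1 at -0.03 (adjusted p = 0.861).

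Among 13 surface genes tested, Cd40lg, Il6st and Il21r rose and Pdcd1 and Cxcr4 fell. Cxcr4, a receptor for CXCL12, stood at 14.5 to 37.1 CPM in KO-labelled and 52.1 to 76.2 CPM in WT-labelled mice, with no overlap (log2 fold change -1.54 ± 0.18, adjusted p = 3.76e-05, edgeR). Il21r, the receptor for interleukin 21, rose by 0.42 ± 0.11 on the log2 scale (adjusted p = 0.0150, edgeR). Il21r stood at 0.20 with clusters weighted alike (adjusted p = 0.0728, limma), Cd40lg at 0.28 (0.0684), Il6st at 0.07 (0.846) and Pdcd1 at -0.36 (0.207), while Cxcr4 was still lower (-1.25, adjusted p = 2.20e-05). Icos, the costimulatory receptor of helper cells, had a log2 fold change of 0.14 (adjusted p = 0.310, edgeR). Of 5 SLAM family genes, Sh2d1a (-0.58 ± 0.09, adjusted p = 6.71e-04) and Slamf6 (-0.54 ± 0.17, adjusted p = 0.0389) fell. Of 3 further cytokine genes, Il2 rose (1.72 ± 0.32, adjusted p = 0.00167), and Il4 (0.35, adjusted p = 0.493) and Il10 (0.81, adjusted p = 0.158) did not pass. Of the relatives measured, Maff rose (0.58 ± 0.18, adjusted p = 0.0394), and Tox4, Mafg and Mafk had log2 fold changes of 0.05, -0.05 and 0.13 that did not pass. Maff stood at 0.05 with clusters weighted alike (adjusted p = 0.858, limma), and the signs turned for Il4 (-0.66, adjusted p = 0.133) and Mafg (0.06, adjusted p = 0.768).

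**Figure D5:**
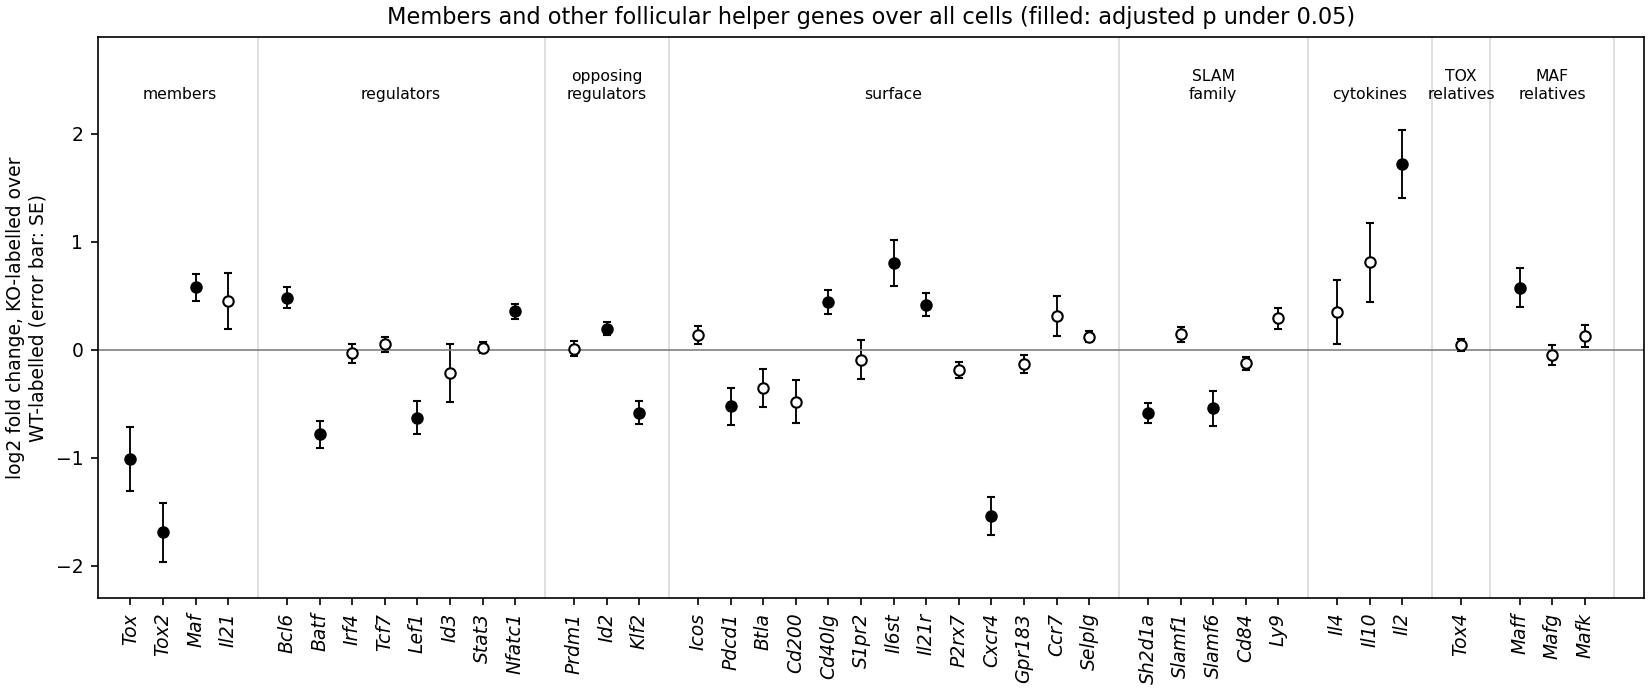
Log2 fold change of KO-labelled over WT-labelled mice over all cells, with its SE as error bar, for the 4 members tested and 36 further genes grouped by role; filled points have an adjusted p under 0.05 (edgeR, 6 against 6 mice). Tox2 and Cxcr4 lay lowest, at -1.69 and -1.54, and Il2 highest, at 1.72.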

How the data were processed

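The authors deposited raw UMI counts per gene and cell with a per-cell annotation of mouse, genotype, cluster and clonotype; Cell Ranger 3.1.0, Seurat 3.1.5 and GRCm38 are named in the submitters' processing notes. The annotation also holds, per the file headers, each cell's doublet score and its mitochondrial share in percent, as the authors deposited them. No source used here states how cells were filtered, and no doublet caller was run (the highest deposited score was 0.354).

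Counts were summed per mouse, the replicate (6 against 6), and per mouse and cluster (at least 20 cells). The deposited clusters were used, with clusters 1 and 3, which carry a general CD4 label, kept apart as unnamed 1 and unnamed 3. Sums were tested across the whole table under R 4.3.3 by the quasi-likelihood test of edgeR 4.0.16 (TMM, filterByExpr, two-sided), with genes called at a Benjamini-Hochberg adjusted p under 0.05. The SE of a log2 fold change is its size over the square root of F. Cluster-weighted values and differences between effects were tested with limma 3.58.1 on log2 CPM with a prior count of 2. For the weighted values, each cluster was weighted by its share of all cells, with no minimum of cells. Regulatory clusters of as few as 10 cells in a mouse entered them. Shares of cells with a Cxcr5 UMI were compared by exact permutation over 924 assignments of mice, where the smallest p is 0.00216, after thinning to 1500 UMIs, which left out 491 KO-labelled and 407 WT-labelled cells. Limits at a count of 0 use 3 counts and cover counting error only. Scripts were tested on simulated data.

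The members, gene lists, markers and tests were chosen with earlier results of these data known. Named genes are the members, a list of follicular helper genes by role, and for members with 500 or more UMIs the 3 genes most alike; the genes set beside the Cxcr5 cells beyond those lists were chosen after their values were seen. Alternatives were DESeq2 1.42.0 size factors and test, no filter, equal cells per mouse, no cycling cells, no KO-labelled mice 1 and 2, no cells with markers of other cell types, clusters weighted alike, other thinning and clonotype settings, and each mouse left out.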

Additional observations from a re-analysis of the deposited data

Results flagged for a closer look

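Single mice stood apart from the other mice of their genotype in 5 of 43 groups of mice examined, each a member in a cluster or over all cells with at least 20 UMIs. The rule compares the gap to the nearest mouse with the whole range (Dixon's ratio). It marks about 1 group in 20 by chance only where groups are independent and values normally distributed. Here counts were low and the groups over all cells contain the clusters, so the chance rate is not known. KO-labelled mouse 6 was high for Tox2 over all cells, at 15.03 CPM against 7.47 in the next mouse, and in cycling cells, at 27.2 against 12.2 CPM. WT-labelled mouse 4 was high for Tox2 in Th17 cells, at 99.0 against 65.4 CPM. KO-labelled mouse 5 was high for Tox in unnamed cluster 1, at 9.36 against 4.17 CPM from 14 UMIs. KO-labelled mouse 4 was low for Maf in cycling cells, at 77.3 against 121.8 CPM in the next mouse.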

How the results depend on the processing

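For 42 results, 389 alternatives were computed: 337 kept the direction and the side of the threshold, 36 lost a call, 14 gained one and 2 changed sign. In recirculating, cytotoxic, cycling and both unnamed clusters, a minimum of 50 cells per mouse left out no mouse. There that alternative repeated the main fit and counts among the 337. Over all cells, Tox2 passed in each alternative, with log2 fold changes from -2.08 to -0.89. Tox did not pass without cells holding a UMI of another cell type (-0.97) or with clusters weighted alike (-0.85), and ran from -1.17 to -0.78 with each mouse left out in turn. Maf did not pass with clusters weighted alike (0.24), and ran from 0.48 to 0.67 with each mouse left out. Il21 changed sign with clusters weighted alike (-0.17), as did its effect in unnamed cluster 1 against recirculating cells at a prior count of 0.5 (0.12). The cause was not tested.

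The difference in the share of cells with a Cxcr5 UMI (-0.284 percentage points, not passing) passed at 500 UMIs (-0.0872), without thinning (-0.472), with another seed (-0.322), without cells holding a UMI of another cell type (-0.171) and as the expected share over all draws (-0.305). It ran from -0.346 to -0.217 with each mouse left out, and passed only without WT-labelled mouse 5.

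Of results not over all cells, calls were lost for Tox2 in Th17 cells (9 of 17 alternatives), Tox2 in cytotoxic cells (7 of 15) and in unnamed cluster 3 (8 of 16), and Tox in those clusters (2 of 15 and 1 of 16). DESeq2 gave no adjusted p for Tox or Tox2 in cytotoxic cells. In clonotypes, Tox2 did not pass with expansion set at 10 cells, nor Maf in cytotoxic cells at 2 cells, and Il21 over all cells and Tox in cytotoxic cells passed at 2, the latter also with DESeq2 size factors.

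No paired analysis was possible because the hashtag numbers of the KO-labelled and WT-labelled mice do not repeat. UMIs limit Tox and Il21 within clusters and Cxcr5 throughout.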
